A study of Mus musculus with 6 samples.

Results

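Metallothioneins are small cysteine-rich proteins that bind zinc and copper, and zinc transporters move zinc across membranes. The set described here holds 10 genes that buffer, carry or sense zinc: Mt1, Mt2 and Mt3, the transporters Slc30a1, Slc30a2 and Slc30a8, which move zinc out of the cytosol, the importers Slc39a4, Slc39a5 and Slc39a14, and the transcription factor Mtf1. They were taken by name, as all probes carrying one of these symbols, which gave 13 of 55681 probes and 10 of 24165 named genes. All 10 genes passed the filter on dim probes, among 14167 genes that did. Mtf1 passed through 1 genotype alone.

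Pancreata of newborn C57BL/6N mice (postnatal day 0.5) were taken whole, and their total RNA was hybridised to single-colour Agilent arrays, 2 for each of 3 genotypes. In Spink3-/- mice, which lack the trypsin inhibitor that acinar cells secrete with their digestive enzymes, the series' design states that acinar cells throughout the pancreas die without apoptosis but with autophagy. Spink3-/-XKI/+ mice also lack both Spink3 copies, and per the design around 50% of their acinar cells look normal. Spink3+/+ mice are the wild-type controls, and no other treatment is named for any genotype. The labels leave XKI unexplained and do not tell whether a genotype's 2 samples are different animals, so each p-value rests on a spread between samples that may be technical. In whole-organ RNA, fewer cells of a type and less RNA per cell cannot be told apart.

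In the exocrine pancreas zinc is packed into secretory granules and leaves with the pancreatic juice, while in islet beta cells it is stored with insulin. When free zinc in a cell rises, Mtf1 binds metal response elements in promoters such as those of Mt1, Mt2 and Slc30a1 and raises their transcription. Mt1 and Mt2 are also induced by glucocorticoids and by stress, and both are strongly expressed in the newborn liver.

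The 250 bases before the start sites of Mt1, Mt2 and Slc30a1 are printed because these are the genes through which the response to zinc is usually read. They are RefSeq sequences of build GRCm38.p6, 5′ to 3′ on the strand of the gene. Capitals mark the core letters of a metal response element, TGCACNC or TGCGCNC, searched on both strands, where N is any base. The Mt1 window is chr8:94178839-94179088, the Mt2 window is chr8:94172368-94172617 and the Slc30a1 window is chr1:191906531-191906780, all on the plus strand.
Mt1: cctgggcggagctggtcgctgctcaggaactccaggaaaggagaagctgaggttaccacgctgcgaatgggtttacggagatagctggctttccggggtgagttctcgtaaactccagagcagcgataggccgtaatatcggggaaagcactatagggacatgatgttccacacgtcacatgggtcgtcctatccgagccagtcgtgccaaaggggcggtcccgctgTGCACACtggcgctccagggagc
Mt2: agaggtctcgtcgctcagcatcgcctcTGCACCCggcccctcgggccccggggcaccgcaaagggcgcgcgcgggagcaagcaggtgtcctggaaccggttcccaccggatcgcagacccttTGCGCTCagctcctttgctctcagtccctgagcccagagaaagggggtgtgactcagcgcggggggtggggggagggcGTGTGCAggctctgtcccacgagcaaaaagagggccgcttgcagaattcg
Slc30a1: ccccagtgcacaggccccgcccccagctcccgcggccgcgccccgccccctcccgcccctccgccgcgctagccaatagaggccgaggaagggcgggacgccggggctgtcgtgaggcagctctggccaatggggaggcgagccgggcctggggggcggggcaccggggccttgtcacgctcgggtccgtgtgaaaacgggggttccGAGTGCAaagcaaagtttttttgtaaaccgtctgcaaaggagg

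The window of Mt2 held 3 cores, whose leftmost printed bases lay 223, 128 and 50 bases before the start, the last core on the opposite strand. Mt1 held 1 core, 23 bases before its start, and Slc30a1 held 1 on the opposite strand, 43 bases before its start. Of the other members in the table, Slc30a2 held 2 cores and 1 of the 2 promoters of Slc39a5 held 1, all on the opposite strand. The windows of Mt3 and Mtf1 held none, and Slc30a8, Slc39a4 and Slc39a14 were not matched. Among all 32851 promoters of the table, 21.4% held at least 1 core, 5.17% at least 2 and 1.26% at least 3. Only the 250 bases before each annotated start were searched, so cores further away or past that start were not counted. The counts of Mt1, Mt2 and Slc30a1 hold for these windows alone. A match of letters is a description of the sequence and not a bound site.

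The arrays as a whole differed little. Each array read the 55681 probes once or more, between 42.4% and 50.8% of spots were well above background, and no spot was saturated. Across probes the arrays correlated with r from 0.971 to 0.984. With 2 arrays a genotype, precision is limited throughout. Spink3 itself had log2 levels of 3.25 and 2.95 in Spink3-/-, 2.64 and 2.34 in Spink3-/-XKI/+, and 9.84 and 10.26 in Spink3+/+. Every level is the log2 of the processed signal minus the log2 of the array's 75th percentile, so 0 is that percentile, and levels of different probes are not set against each other. On each array 10 of 10 acinar markers stood well above background, and their mean log2 level was 6.85 and 7.002 in Spink3-/-, 7.45 and 7.19 in Spink3-/-XKI/+, and 7.31 and 7.21 in Spink3+/+. The mean of 7 macrophage markers was 2.04 and 1.73 in Spink3-/-, 2.21 and 1.97 in Spink3-/-XKI/+, and 1.30 and 1.60 in Spink3+/+. The mean of 6 neutrophil markers was 2.29 and 2.73 in Spink3-/-, 2.57 and 2.23 in Spink3-/-XKI/+, and 2.98 and 3.36 in Spink3+/+. The part of these cell types in the members' levels was not tested. Of the 12 islet markers, 11 were above it on replicate 2 of Spink3-/- and all 12 on each other array. The arrays lay in 2 rows of 1 slide: both Spink3+/+ arrays and replicate 1 of Spink3-/- in row 1, and replicate 2 of Spink3-/- and both Spink3-/-XKI/+ arrays in row 2. Between Spink3-/-XKI/+ and Spink3+/+, row and genotype can thus be parted only through the 2 Spink3-/- arrays.

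Mt1, the ubiquitous metallothionein, was brightest on the 2 Spink3-/- arrays. Its log2 level was 10.01 and 9.88 in Spink3-/-, 7.34 and 8.95 in Spink3-/-XKI/+, and 9.16 and 7.58 in Spink3+/+. Both Spink3-/- arrays stood above the other 4, and the ranges of Spink3-/-XKI/+ and Spink3+/+ overlapped. The mean in Spink3-/- was 2.97-fold that in Spink3+/+, with a 95% interval of 0.969 to 9.13. The log2 difference was 1.57 (SE 0.66, n = 2 per genotype, limma adjusted p = 0.987) and did not pass the test. Against Spink3-/-XKI/+ the log2 difference was 1.80 (SE 0.66, limma adjusted p = 0.637), a 3.49-fold ratio, and the 95% interval of the log2 difference ran from 0.18 to 3.42. Spink3-/-XKI/+ itself was 0.23 lower than Spink3+/+ (log2 difference -0.23, SE 0.66, limma adjusted p = 0.954). Within row 1 of the slide, Mt1 was 1.64 higher in Spink3-/- than in Spink3+/+, and within row 2 it was 1.74 higher in Spink3-/- than in Spink3-/-XKI/+, with 1 or 2 arrays on each side.

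A second probe for Mt1, which the file places at chr8:96703844-96703903 on mm9, gave the same order of arrays at the top. Its level was 2.82 and 1.91 in Spink3-/-, -0.40 and 0.78 in Spink3-/-XKI/+, and 1.69 and -0.80 in Spink3+/+. Both Spink3-/- arrays again stood above the other 4. Over the 6 arrays the 2 Mt1 probes correlated with Pearson r = 0.962. The first probe lies at chr8:96704165-96704224, near those of Mt2 at chr8:96697371-96697430 and Mt3 at chr8:96677927-96677986, all on the plus strand of mm9.

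Mt2, the partner gene induced together with Mt1, had the widest spread between arrays of a genotype among the members. Its level was 8.09 and 6.74 in Spink3-/-, 4.95 and 7.15 in Spink3-/-XKI/+, and 6.89 and 4.49 in Spink3+/+. Replicate 1 of Spink3-/- was the highest of the 6 arrays, but replicate 2 lay below 1 array of each other genotype. The log2 difference between Spink3-/- and Spink3+/+ was 1.73 (SE 1.02, n = 2 per genotype, limma adjusted p = 0.987). The 3.31-fold ratio had a 95% interval of 0.590 to 18.6. Between Spink3-/- and Spink3-/-XKI/+ the log2 difference was 1.37 (SE 1.02, limma adjusted p = 0.825). Between Spink3-/-XKI/+ and Spink3+/+ it was 0.36 (SE 1.02, limma adjusted p = 0.953). Within row 1 Mt2 was 2.40 higher in Spink3-/- than in Spink3+/+, and within row 2 it was 0.70 higher in Spink3-/- than in Spink3-/-XKI/+.

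Single arrays moved these differences. Without replicate 2 of Spink3+/+, the log2 difference of Spink3-/- over Spink3+/+ was 0.78 for Mt1 and 0.52 for Mt2. Without replicate 1 of Spink3+/+ it was 2.36 for Mt1 and 2.93 for Mt2. Without replicate 1 of Spink3-/- it was 1.05 for Mt2. Against Spink3-/-XKI/+, leaving out that genotype's replicate 1 gave 1.00 for Mt1 and 0.27 for Mt2, and leaving out its replicate 2 gave 2.47 for Mt2. For Mt2 in the same comparison, leaving out replicate 1 of Spink3-/- gave 0.70. In each of these fits the difference of Spink3-/- stayed above 0 for both genes, and none passed the test. Between Spink3-/-XKI/+ and Spink3+/+ the sign itself turned: the Mt1 difference ran from -1.04 to 0.57 and the Mt2 difference from -0.85 to 1.56 over the 6 fits that leave out 1 array.

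**Figure D1:**
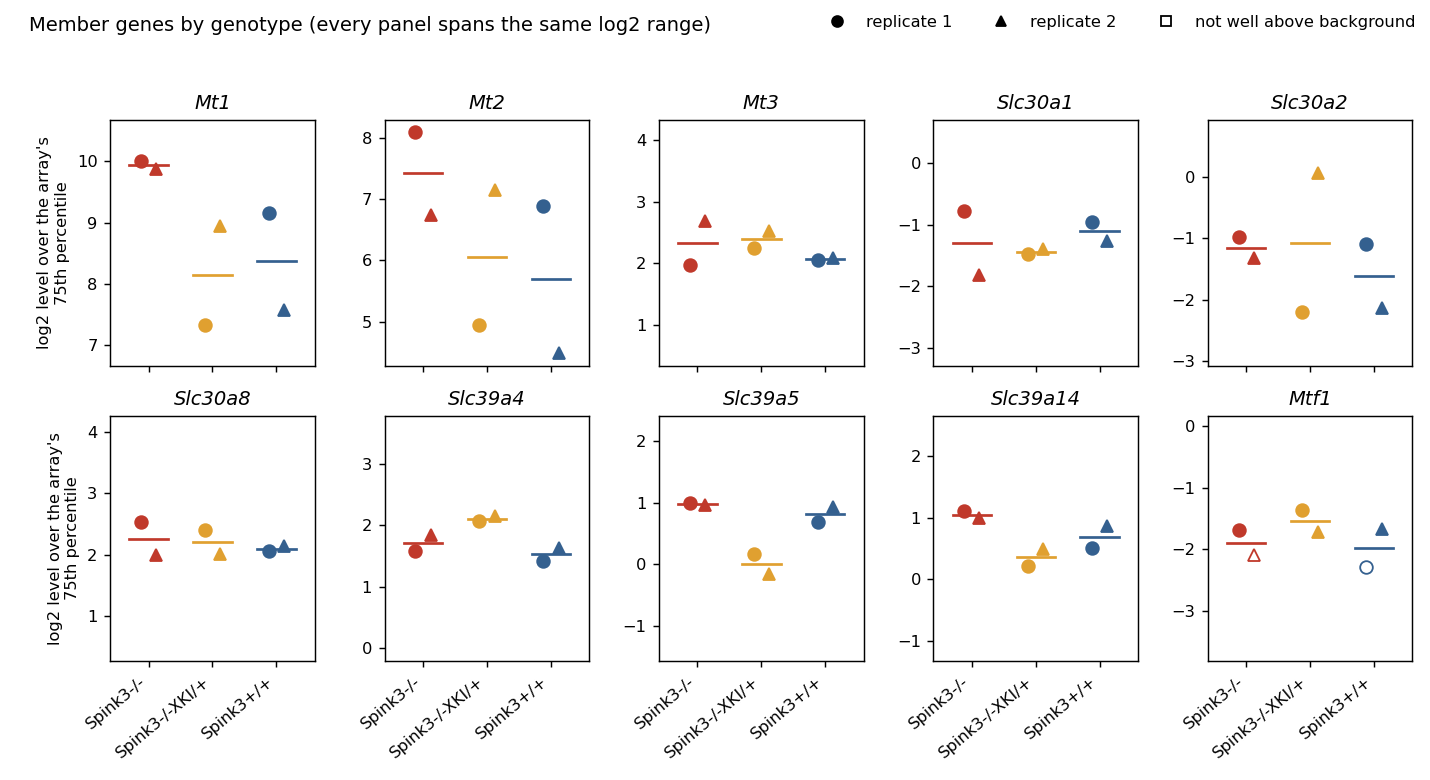
Log2 level of each member over the array's 75th percentile (vertical axis, same span in every panel) in Spink3-/-, Spink3-/-XKI/+ and Spink3+/+. Circles are replicate 1, triangles replicate 2, bars the mean of the 2 arrays, and open symbols spots not well above background. Both Mt1 points of Spink3-/- lie above the other 4, whereas the Mt2 and Slc30a2 points of the genotypes overlap.

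Mt1 and Mt2 moved together over the arrays, with Pearson r = 0.916 over 6 arrays that share the array scaling and the 3 genotypes. Their spread within genotypes was large beside other genes. The residual SD of the log2 level was 1.44 for Mt2 and 0.92 for Mt1, larger than for 99.8% and 98.3% of the 14167 tested genes, whose median was 0.22. The 2 Spink3+/+ arrays differed 5.31-fold in Mt2 and 2.99-fold in Mt1. The 2 Spink3-/-XKI/+ arrays differed 4.60-fold in Mt2 and 3.05-fold in Mt1. The 2 Spink3-/- arrays differed 2.54-fold in Mt2 but 1.09-fold in Mt1, a gap larger than that of 24.5% of tested genes. Spink3-/- was thus the genotype in which the 2 Mt1 values lay closest.

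**Figure D2:**
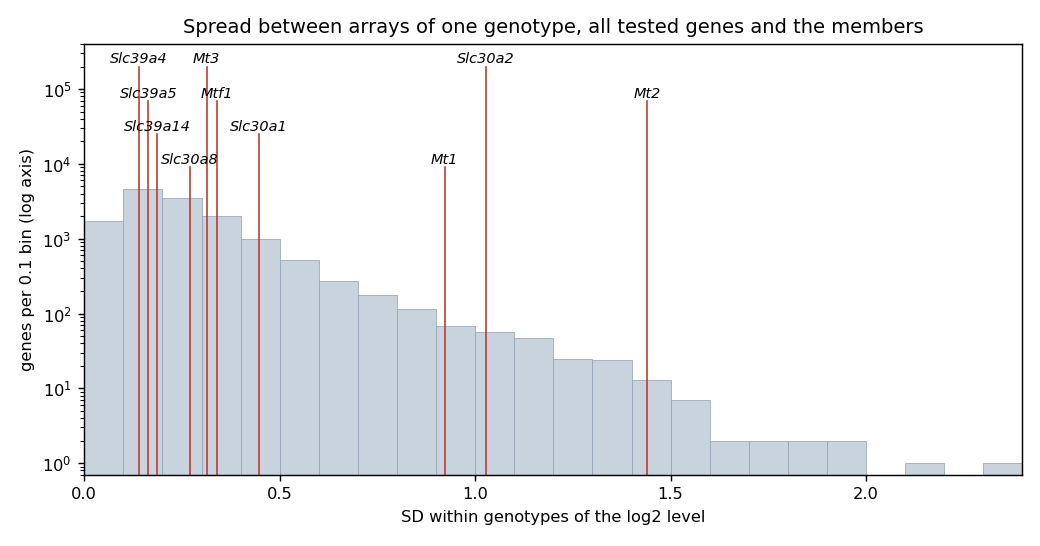
Number of tested genes (vertical axis, log scale) by the SD of the log2 level within genotypes (horizontal axis), in bins of 0.1. Red lines mark the 10 members: Mt1, Slc30a2 and Mt2 lie in the right tail, at 0.92, 1.03 and 1.44, and Slc39a4 lies lowest at 0.14.

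Liver markers were also highest in the genotype in which Mt1 was brightest. All 12 of 12 liver markers were tested, and their mean log2 level was 1.72 and 1.35 in Spink3-/-, -0.61 and 0.84 in Spink3-/-XKI/+, and -0.09 and 0.20 in Spink3+/+. All 12 were higher without overlap in Spink3-/- than in Spink3+/+, where 16.2% of all tested genes were. Their median log2 difference was 1.74, and none passed the test across all genes. All 12 were well above background on both Spink3-/- arrays, 9 and 12 on the Spink3-/-XKI/+ arrays, and 10 and 11 on the Spink3+/+ arrays. Between the 2 Spink3-/- arrays the liver mean, Mt1 and Mt2 were higher on replicate 1, and between the 2 Spink3-/-XKI/+ arrays all of them were higher on replicate 2. Between the 2 Spink3+/+ arrays, Mt1 and Mt2 were lower on replicate 2, where the liver mean was the higher. The part of liver RNA in the metallothionein levels was not tested.

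Mt3 is best known from the brain. Its level was 1.98 and 2.69 in Spink3-/-, 2.24 and 2.53 in Spink3-/-XKI/+, and 2.05 and 2.09 in Spink3+/+. The Spink3-/-XKI/+ arrays stood just above those of Spink3+/+, and the Spink3-/- arrays spanned both. The log2 difference was 0.26 (SE 0.27) for Spink3-/- over Spink3+/+ and 0.32 (SE 0.27) for Spink3-/-XKI/+ over Spink3+/+, with limma adjusted p = 0.989 and 0.824. Mt4, the metallothionein of stratified epithelia, was on the array but did not pass the filter.

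Mtf1 (chromosome 4), the zinc sensor of this set, was close to background. Its brightest probe read -1.69 and -2.10 in Spink3-/-, -1.37 and -1.73 in Spink3-/-XKI/+, and -2.29 and -1.66 in Spink3+/+. It was well above background on both Spink3-/-XKI/+ arrays but on 1 of 2 in each other genotype, so its differences are poorly measured. The 2 further probes of Mtf1 were each well above background on 1 of 6 arrays and were not tested. Its log2 difference was 0.43 for Spink3-/-XKI/+ over Spink3+/+ (SE 0.28, limma adjusted p = 0.775). That value was 0.84 with the slide row as a block. No row held both genotypes compared, so the blocked value takes in the gap between the 2 Spink3-/- arrays. Without the block, the difference was 0.12 without replicate 1 of Spink3+/+, 0.74 without its replicate 2 and 0.25 without replicate 1 of Spink3-/-XKI/+.

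Of the transporters that carry zinc out of the cytosol, Slc30a1 (chromosome 1) exports it across the plasma membrane. Its level was -0.77 and -1.82 in Spink3-/-, -1.48 and -1.39 in Spink3-/-XKI/+, and -0.96 and -1.26 in Spink3+/+. The Spink3-/- arrays were the highest and the lowest of the 6, a 2.07-fold gap, and both Spink3-/-XKI/+ arrays lay below both Spink3+/+ arrays. The log2 difference was -0.18 (SE 0.35, limma adjusted p = 0.991) for Spink3-/- over Spink3+/+. It was -0.33 (SE 0.35, limma adjusted p = 0.854) for Spink3-/-XKI/+ over Spink3+/+, and with the slide row as a block it was 0.72. No row held both of these genotypes, so the blocked value takes in the gap between the 2 Spink3-/- arrays. The interval of the first difference, -1.03 to 0.67, spans 0.

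Slc30a2 (chromosome 4) loads zinc into secretory vesicles, and Slc30a8 (chromosome 15) into the insulin granules of beta cells. Slc30a2 read -0.98 and -1.32 in Spink3-/-, -2.20 and 0.06 in Spink3-/-XKI/+, and -1.09 and -2.13 in Spink3+/+. The 2 Spink3-/-XKI/+ arrays held both the lowest and the highest value, a 4.81-fold gap, and its residual SD of 1.03 was larger than that of 98.9% of tested genes. Slc30a8 read 2.53 and 1.99 in Spink3-/-, 2.40 and 2.02 in Spink3-/-XKI/+, and 2.06 and 2.13 in Spink3+/+. All 3 genotypes overlapped in Slc30a8, and the largest of its 3 log2 differences was 0.16 (SE 0.24, limma adjusted p = 0.991), for Spink3-/- over Spink3+/+. The mean level of 12 islet markers was 4.13 and 4.01 in Spink3-/-, 4.21 and 4.02 in Spink3-/-XKI/+, and 3.98 and 4.31 in Spink3+/+.

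The 3 importers had the smallest residual SDs among the members, from 0.14 to 0.19. Slc39a5 (chromosome 10), which in mice sits on the basolateral side of acinar cells and enterocytes, read 0.99 and 0.96 in Spink3-/-, 0.16 and -0.16 in Spink3-/-XKI/+, and 0.69 and 0.93 in Spink3+/+. Both Spink3-/-XKI/+ arrays were below all 4 others. In Spink3-/-XKI/+ it was 0.571-fold the Spink3+/+ level, with an interval of 0.413 to 0.790. The log2 difference was -0.81 (SE 0.19, n = 2 per genotype, limma adjusted p = 0.448). Spink3-/- was 1.97-fold the Spink3-/-XKI/+ level, with an interval of 1.42 to 2.72 and a log2 difference of 0.98 (SE 0.19, limma adjusted p = 0.395). Neither passed the test over all genes. Spink3-/- and Spink3+/+ differed by 0.17 (SE 0.19, limma adjusted p = 0.990). Within row 2 of the slide Slc39a5 was 0.96 higher in Spink3-/- than in Spink3-/-XKI/+, and no row held both Spink3-/-XKI/+ and Spink3+/+.

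Slc39a14 (chromosome 14), an importer of zinc, manganese and iron that interleukin 6 induces in liver cells, had the same order of genotype means. Its level was 1.11 and 1.00 in Spink3-/-, 0.22 and 0.50 in Spink3-/-XKI/+, and 0.52 and 0.86 in Spink3+/+. Spink3-/- was on top, and the higher Spink3-/-XKI/+ array lay just below the lower Spink3+/+ array. Spink3-/- over Spink3-/-XKI/+ had a log2 difference of 0.70 (SE 0.20, limma adjusted p = 0.554). Spink3-/- over Spink3+/+ had one of 0.36 (SE 0.20, limma adjusted p = 0.987), and Spink3-/-XKI/+ over Spink3+/+ one of -0.33 (SE 0.20, limma adjusted p = 0.761). Without replicate 1 of Spink3+/+ these last differences were 0.19 and -0.50, and without its replicate 2 they were 0.54 and -0.16. Without replicate 1 of Spink3-/-XKI/+ the difference of that genotype from Spink3+/+ was -0.19.

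Slc39a4 (chromosome 15), the importer that takes up dietary zinc in the intestine, was brightest on the Spink3-/-XKI/+ arrays. Its level was 1.58 and 1.85 in Spink3-/-, 2.07 and 2.15 in Spink3-/-XKI/+, and 1.42 and 1.63 in Spink3+/+. Both Spink3-/-XKI/+ arrays were above the other 4, while Spink3-/- and Spink3+/+ overlapped. The log2 difference of Spink3-/-XKI/+ over Spink3+/+ was 0.58 (SE 0.18, n = 2 per genotype, limma adjusted p = 0.555), and that of Spink3-/- over Spink3-/-XKI/+ was -0.40 (SE 0.18, limma adjusted p = 0.716). Within row 2 of the slide the Slc39a4 difference of Spink3-/- over Spink3-/-XKI/+ was -0.26. No row held both Spink3-/-XKI/+ and Spink3+/+.

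**Figure D3:**
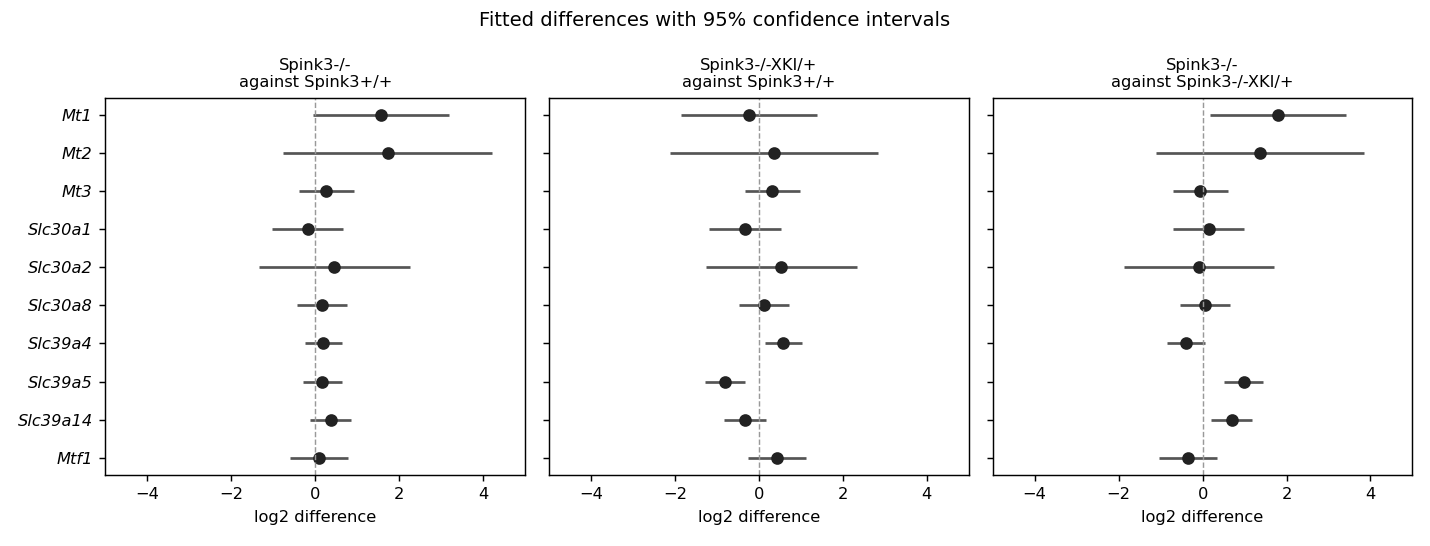
Fitted log2 differences of the 10 members (points) with 95% confidence intervals (lines) in the 3 comparisons, Spink3-/- against Spink3+/+, Spink3-/-XKI/+ against Spink3+/+ and Spink3-/- against Spink3-/-XKI/+, each as the group named first minus the other. The intervals of Mt1, Mt2 and Slc30a2 are wide. Those of Slc39a5 are away from 0 in the 2 comparisons with Spink3-/-XKI/+. So are that of Slc39a4 in Spink3-/-XKI/+ against Spink3+/+ and those of Mt1 and Slc39a14 in Spink3-/- against Spink3-/-XKI/+. The intervals are not adjusted for the number of genes tested.

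In Spink3-/- against Spink3+/+, 0 of 10 were called by limma, where 0.0353% of all tested genes were (0.0212% higher and 0.0141% lower), and 0 had an unadjusted p under 0.05, where 5.06% of all genes did. Of the 10, 3 were higher without overlap of the arrays (Mt1, Slc39a5 and Slc39a14), where 16.2% of all genes were, and 0 were lower without overlap, where 16.6% were. The median log2 difference was 0.23 for the members and -0.01 for all genes. In size alone, the differences of Mt2 and Mt1 were larger than those of 99.4% and 99.2% of tested genes.

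In Spink3-/-XKI/+ against Spink3+/+, 0 of 10 members were called by limma, against 0.00706% of all genes. An unadjusted p under 0.05 was found for 2 members, Slc39a5 and Slc39a4, where 7.57% of all genes had one. Mt3 and Slc39a4 were higher without overlap, 2 members where 26.0% of all genes were higher. Slc30a1, Slc39a5 and Slc39a14 were lower without overlap, 3 members where 16.1% of all genes were lower. The median log2 difference was 0.21 for the members and 0.04 for all genes.

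In Spink3-/- against Spink3-/-XKI/+, 0 of 10 members were called by limma, against 0.00706% of all genes. An unadjusted p under 0.05 was found for 3 members, Mt1, Slc39a5 and Slc39a14, where 7.21% of all genes had one. The same 3 were higher without overlap, where 13.1% of all genes were, and Slc39a4 alone was lower without overlap, where 21.4% were. The median log2 difference was 0.10 for the members and -0.04 for all genes. The comparisons share arrays, so their values are not independent of each other.

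Genes with a pattern like that of the metallothioneins were sought among 2547 genes whose level spanned at least 1 log2 unit, by the Pearson correlation with the mean of Mt1 and Mt2 over the 6 arrays. Each gene stood for its brightest probe, and Rik, Gm and LOC names were left out. The 5 closest were Pip5k1a, through the brightest of its probes only (r = 0.997), Syne3 (r = 0.896), Cyth3 (r = 0.890), Ifi211 (r = 0.883) and Vav2 (r = 0.879). Over all kept probes, single probes of Serpina1a, Sh2d5 and Pfkfb3, among others, ranked between those of Pip5k1a and Syne3. Serpina1a is one of the liver markers. With 6 arrays and so many candidates these are descriptions. The Pip5k1a probe read 6.47 and 5.77 in Spink3-/-, 3.80 and 5.39 in Spink3-/-XKI/+, and 5.37 and 3.74 in Spink3+/+. Ranked by this probe, the 6 arrays fell in the same order as by the mean of Mt1 and Mt2.

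That probe is assigned to Pip5k1a, which encodes a phosphatidylinositol phosphate kinase, through an Ensembl transcript, at chr3:94901128-94901187 on the minus strand of mm9. The 2 other Pip5k1a probes, designed to the RefSeq transcript, did not share the pattern, with r = -0.28 and -0.19. The brighter of these stayed between 1.31 and 1.46 on all 6 arrays. The 60 bases of the matching probe are printed because its letters set it apart from most probes, with TGC triplets of 1 reading frame in capitals.
Pip5k1a probe: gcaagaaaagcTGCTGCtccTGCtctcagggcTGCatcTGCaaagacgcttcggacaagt

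The triplet TGC, like TGT, codes for cysteine, the residue through which metallothioneins bind metal. The probe had 5 such triplets among the 19 of that frame, and 0.758% of the 55681 probes had as many or more in their best frame. The probe of Mt4 had 9 and that of Mt3 had 4, whereas the 2 Mt1 probes had 2 each and the Mt2 probe had 1. The longest run of bases it shared with the probes of Mt1 and Mt2 was 6, and with the Mt4 probe it was 11. Only probes were compared, and a probe covers just part of a transcript. These runs therefore do not tell how much the Pip5k1a probe shares with whole metallothionein transcripts. Whether it reads Pip5k1a transcripts or hybridises to metallothionein transcripts was not tested. Its pattern is therefore that of a probe, and is not shown to be that of Pip5k1a.

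**Figure D4:**
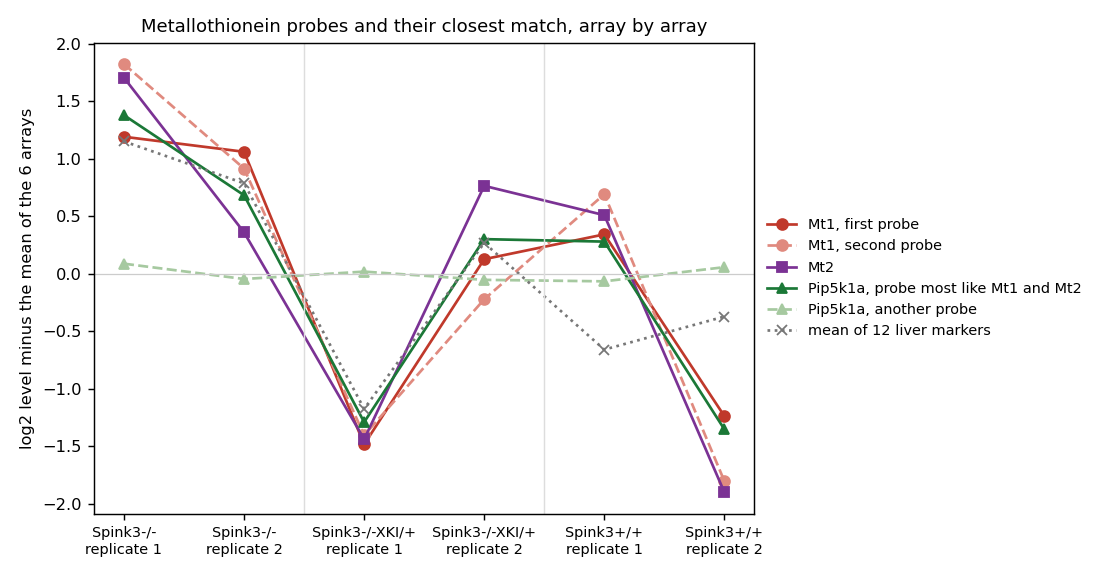
Log2 level minus the mean over the 6 arrays (vertical axis) for both Mt1 probes, Mt2, the Pip5k1a probe most like them, another Pip5k1a probe and the mean of 12 liver markers, array by array. The metallothionein probes and the first Pip5k1a probe are lowest on replicate 1 of Spink3-/-XKI/+ and replicate 2 of Spink3+/+. The other Pip5k1a probe is flat, and the liver mean departs from them in Spink3+/+.

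The remaining zinc transporters showed no difference that passed the test. Of 7 other SLC30 genes 4 were tested, and of 11 other SLC39 genes 8 were, with none called in any comparison. Their median log2 differences in Spink3-/- against Spink3+/+ were -0.08 and -0.01, beside -0.01 for all genes. Slc30a4, which fills vesicles with zinc, read 0.89 and 0.56 in Spink3-/-, 0.73 and 0.31 in Spink3-/-XKI/+, and 0.91 and 1.08 in Spink3+/+. Slc30a5, a transporter of the secretory pathway, stayed between 0.57 and 0.99. Slc30a9 read 0.31 on replicate 1 of Spink3-/- and between -2.68 and -2.03 on the other 5 arrays, so its difference rested on 1 array. Slc39a1, a widespread plasma membrane importer, stayed between 4.35 and 4.69, and Slc39a3 between -0.08 and 0.36. Slc39a8, an importer of zinc and manganese, read -1.09 and -0.91 in Spink3-/-, 0.38 and -1.22 in Spink3-/-XKI/+, and -0.45 and -0.67 in Spink3+/+.

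Genes of copper and iron handling were set beside them, since metallothioneins also bind copper. Of 10 tested copper genes, 5 were higher and 5 lower in Spink3-/- than in Spink3+/+. In Spink3-/-XKI/+ 10 were higher than in Spink3+/+, 6 of them without overlap, where 26.0% of all genes were. Their median log2 difference there was 0.27, and that of all genes 0.04. No row of the slide held both of these genotypes, and the part of the row in the copper gene levels was not tested. In Spink3-/- against Spink3-/-XKI/+ 9 were lower and 1 higher, with a median of -0.23. None was called in any comparison. Cp, the copper-carrying ferroxidase of plasma, read -0.11 and -0.30 in Spink3-/-, 1.26 and 1.27 in Spink3-/-XKI/+, and 0.32 and 0.78 in Spink3+/+. The 3 genotypes did not overlap in Cp, and Spink3-/- over Spink3-/-XKI/+ had a log2 difference of -1.46 (SE 0.21, limma adjusted p = 0.238). Ccs, the copper chaperone of superoxide dismutase, stayed between 3.30 and 3.71, and Cox17, which delivers copper to cytochrome oxidase, was dim, between -3.92 and -2.33.

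Of 13 tested iron genes none was called. Slc40a1, the iron exporter ferroportin, read 1.51 and 1.28 in Spink3-/-, 2.69 and 2.32 in Spink3-/-XKI/+, and 2.29 and 2.26 in Spink3+/+. Both Spink3-/- arrays lay below the other 4, with a log2 difference of -0.88 to Spink3+/+ (SE 0.20, limma adjusted p = 0.733). Slc11a2, an iron importer, read -1.21 and -1.17 in Spink3-/-, -0.39 and -0.93 in Spink3-/-XKI/+, and -1.40 and -1.39 in Spink3+/+. Slc25a37, the mitochondrial iron importer of red cell precursors, read 2.66 and 2.58 in Spink3-/-, 2.57 and 2.31 in Spink3-/-XKI/+, and 3.31 and 2.88 in Spink3+/+. The 3 tested erythroid markers averaged 1.99 and 1.77 in Spink3-/-, 1.92 and 0.64 in Spink3-/-XKI/+, and 3.00 and 2.65 in Spink3+/+, and their part in the iron gene levels was not tested.

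Glucocorticoid-induced genes were set beside the metallothioneins because the hormone induces both. Of 12 tested, 9 were higher and 3 lower in Spink3-/- than in Spink3+/+. Their median log2 difference was 0.13, beside -0.01 for all genes. In Spink3-/-XKI/+ against Spink3+/+ 5 were higher and 7 lower, with a median of -0.07, beside 0.04 for all genes. None was called in any comparison. Errfi1, a feedback inhibitor of the EGF receptor, read 3.56 and 3.05 in Spink3-/-, 2.14 and 2.37 in Spink3-/-XKI/+, and 1.83 and 1.59 in Spink3+/+. Its log2 difference of 1.60 between Spink3-/- and Spink3+/+ (SE 0.23, limma adjusted p = 0.331) was close in size to that of Mt1. Between Spink3-/-XKI/+ and Spink3+/+ the log2 difference was 0.55 for Errfi1 and -0.23 for Mt1. Zbtb16, a transcription factor strongly induced by glucocorticoids, read 1.39 and 2.11 in Spink3-/-, -0.41 and 0.91 in Spink3-/-XKI/+, and 2.27 and 1.99 in Spink3+/+. Pdk4, a brake on pyruvate oxidation, read 0.77 and 0.90 in Spink3-/-, 0.32 and -0.43 in Spink3-/-XKI/+, and 0.79 and 0.86 in Spink3+/+. In Zbtb16 and Pdk4 the Spink3-/- and Spink3+/+ arrays overlapped.

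Zinc-dependent enzymes of the pancreas were the last group. Of 6 tested, 5 were lower in Spink3-/- than in Spink3+/+, 4 of them without overlap, where 16.6% of all genes were. Their median log2 difference was -0.19, and none was called. Acinar markers, a list that also holds the zinc enzyme Cpa1, were lower in 7 of 10 cases, 4 of them without overlap, with a median of -0.28. Their part in the enzyme levels was not tested. Car2, a carbonic anhydrase, read -1.04 and -1.88 in Spink3-/-, -1.03 and -1.92 in Spink3-/-XKI/+, and -0.46 and -0.12 in Spink3+/+. Ide, the insulin-degrading enzyme, read 0.44 and 0.48 in Spink3-/-, 0.80 and 0.71 in Spink3-/-XKI/+, and 0.79 and 0.71 in Spink3+/+. Anpep, an aminopeptidase of epithelial surfaces, read 4.23 and 3.95 in Spink3-/-, 5.13 and 4.41 in Spink3-/-XKI/+, and 4.30 and 4.36 in Spink3+/+.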

How the data were processed

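Total RNA of 6 samples was labelled with Cy3 and read on single-colour Agilent arrays. The deposited intensity of a spot is the processed signal from Feature Extraction 10.7.3.1 (Agilent), background-subtracted and detrended on a linear scale, per the file headers, which name mm9 for the annotation. The spot flags (well above background, saturated, outlier) are deposited 0 or 1 codes. The value file deposited for the series repeats these intensities spot by spot (column medians 15.2 to 19.9).

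From these, log2 of the signal minus the array's 75th percentile (111 to 155 in signal) was taken. Outlier spots were left out and spots of 1 probe averaged. Probes were kept (24818, or 44.6%) where both arrays of 1 or more genotypes had them well above background, and a gene was its brightest unsaturated probe. Names came from a RefSeq table of 49997 genes of GRCm38.p6, used for names and promoters only: 26762 probes matched by accession, 639 by an older symbol and 3819 by the present one, 2044 kept the file's name and 22417 had none.

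The comparisons used R 4.3.3 and limma 3.58.1 (lmFit, contrasts.fit, eBayes, two-sided) on 6 arrays, with 3 residual degrees of freedom, with Benjamini-Hochberg adjustment over all 14167 genes and calls at 0.05. Files were read with the R package data.table (1.17.8), and figures drawn in Python 3.11.15 with matplotlib 3.10.9. The procedure was tested on simulated data. All members are named, with up to 3 genes per related list, those with the largest differences from Spink3+/+. Also named are the 5 genes, Rik, Gm and LOC names left out, whose brightest probes were most like Mt1 and Mt2. Related lists were 7 SLC30 and 11 SLC39 genes, Mt4, 12 copper, 14 iron, 12 glucocorticoid-induced and 8 zinc enzyme genes, beside cell type markers. Members and lists were chosen with earlier results of these data known. Alternatives covered the background correction, the scaling, the filter, the choice of probe, the slide row, the replicate number, the samples in the fit and each array left out.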

Additional observations from a re-analysis of the deposited data

How the results depend on the processing

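No member was called under any alternative: over 297 fits of a member on all arrays the lowest limma adjusted p was 0.262, and over 180 fits that leave out 1 array it was 0.168. Mtf1 could not be tested where a probe had to be above background on all 6 arrays. The sign of a member's difference turned in 10 of the 297. With the slide row as a block, Mt3 turned to -0.094 in Spink3-/- against Spink3+/+, to -0.40 in Spink3-/-XKI/+ against Spink3+/+ and to 0.30 in Spink3-/- against Spink3-/-XKI/+. In the same order Slc30a1 turned to 0.34, 0.72 and -0.38, and Slc30a8 turned to -0.22 in Spink3-/- against Spink3-/-XKI/+. With spike-in scaling, which shifts the median of all genes to 0.33, 0.13 and 0.20 in the 3 comparisons, Slc30a1 turned to 0.15 in Spink3-/- against Spink3+/+, and Mt3 to 0.19 and Slc30a2 to 0.17 in Spink3-/- against Spink3-/-XKI/+. Only Spink3-/- had arrays in both rows, so the row block rests on the gap between its 2 arrays. In Spink3-/- against Spink3+/+ the row block gave the same value as leaving out replicate 2 of Spink3-/-, 0.34 for Slc30a1. A row effect and a difference between these 2 samples cannot be told apart. The cause of the turns with spike-in scaling was not tested.

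Leaving out 1 array turned 19 of 180 signs. In Spink3-/- against Spink3+/+ the differences ran from -0.094 to 0.62 for Mt3, -0.71 to 0.34 for Slc30a1, -0.067 to 0.98 for Slc30a2, -0.11 to 0.43 for Slc30a8 and -0.23 to 0.39 for Mtf1. In Spink3-/-XKI/+ against Spink3+/+ they ran from -1.04 to 0.57 for Mt1, -0.85 to 1.56 for Mt2, -0.60 to 1.67 for Slc30a2 and -0.080 to 0.30 for Slc30a8. In Spink3-/- against Spink3-/-XKI/+ they ran from -0.41 to 0.30 for Mt3, -0.38 to 0.67 for Slc30a1, -1.21 to 1.05 for Slc30a2 and -0.22 to 0.32 for Slc30a8. Where a genotype is left with 1 array, that array is assumed to vary like the others.

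Over all genes, 5 were called in Spink3-/- against Spink3+/+, 1 in Spink3-/-XKI/+ against Spink3+/+ and 1 in Spink3-/- against Spink3-/-XKI/+. In the first comparison the count was 1 with normexp, without a filter, with the filter on all 6 arrays, with the row block, with the replicate block and with the 2 genotypes alone, 2 with the mean of probes, 11 with every probe tested, 45 with spike-in scaling and from 1 to 290 with an array left out. In the second it was 2 with normexp and with every probe tested, 3 with quantile normalization, 45 with spike-in scaling, 0 with the row block and from 1 to 305 with an array left out. In the third it was 0 with normexp, without a filter, with the filter on all 6 arrays, with every probe tested, with the replicate block and with the 2 genotypes alone, 4 with quantile normalization, 31 with spike-in scaling, 3 with the row block and from 0 to 295 with an array left out. The replicate numbers did not pair the samples (correlations of deviations 0.20, -0.06 and 0.03), and the replicate block changed no call among the members. Dim probes such as those of Mtf1 limit what signal over background can show.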
